A study of Nannochloropsis oceanica with 6 samples.

Results

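The genes described here are 45 of the 10481 genes in the deposited tables of Nannochloropsis oceanica IMET1. They lie in the KEGG maps for glycolysis or pyruvate metabolism and outside the citrate cycle, photosynthetic carbon fixation and the pentose phosphate pathway. Of 109 genes in the 2 maps, 64 were set aside, because a further map also held them or because their gene ID was named in the rule. The members fell into 21 enzyme families, with 14 genes in the glycolysis map only, 12 in the pyruvate map only and 19 in both. The rule reads annotation and gene IDs and no measured value, but it was set with earlier results of these data known.

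Nannochloropsis oceanica is a small marine alga that stores oil, and IMET1 is a wild strain of it. Wild-type cells in logarithmic growth were moved at an OD750 of 2.5 into 800 mL of f/2 medium with nitrate (nitrogen repletion, NR) or without any nitrogen source (nitrogen deprivation, ND), 3 cultures of each. They were sampled at 72 h under continuous light of 50 µmol photons per square metre per second, so each condition stands for 1 time point and 1 strain. All 6 cultures came from one growth condition, bubbled with 1.5% CO2 at 25 °C, and went through the same washing step.

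Glycolysis turns glucose phosphates into pyruvate. Its last steps, phosphoglycerate mutase, enolase and pyruvate kinase, make phosphoenolpyruvate and then pyruvate with a gain of ATP. Pyruvate and acetate both lead to acetyl-CoA, the building block of fatty acids, sterols and leucine. Side branches reduce aldehydes to alcohols, detoxify methylglyoxal to lactate, and let malate synthase join acetyl-CoA to glyoxylate. Phosphofructokinase, aldolase, phosphoglycerate kinase, glyceraldehyde-3-phosphate dehydrogenase and pyruvate dehydrogenase were among the steps set aside.

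Libraries held 3972986 to 5693513 estimated counts, of which 32242 to 52529 came from the 45 genes. Levels are in CPM, counts scaled to library size and to library composition, with mean ± SD over n = 3. Changes are log2 ratios, ND over NR, with their SE, so a negative value is a lower level in ND. The scaling factors followed the condition, at 0.890 to 0.908 in NR and 1.11 to 1.12 in ND. With library totals alone the median over all genes shifted to 0.34 from 0.02, so the changes given are relative to the typical gene. Genes called changed have an adjusted p under 0.05. RNA was taken from whole cultures, so fewer cells making a transcript and less of it per cell cannot be told apart. Genes whose estimated counts were not all whole divide part of their reads with another model and carry the words shared reads, which applied to 11 of the 45 (24.4%) and to 23.3% of all genes.

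All 45 genes passed the filter on low counts. Between the conditions 33 of them changed, 15 higher and 18 lower in ND, while 12 did not pass the test. The share of 73.3% lies near the 71.2% called among all 9329 genes tested, of which 35.7% were higher and 35.5% lower. The members' median change was 0.08 and that of all genes 0.02. Changes of at least 2 times were found in 13 members (28.9%, against 21.9% of all genes), 9 of them lower and 4 higher. Among all genes tested, such changes were also more often lower, in 1168 genes against 876 higher. The libraries of the conditions did not overlap in 35 members (77.8%, against 73.5% of all genes). With library totals alone 24 members were higher and 12 lower, and of all 9329 genes 5075 were higher and 2149 lower. Of the 64 genes set aside, 63 were tested, and 25 rose and 27 fell with a median of -0.04. Those shared with the citrate cycle rose in 13 and fell in 6 of 23 tested, and those shared with the pentose phosphate pathway rose in 6 and fell in 13 of 23. Those shared with carbon fixation rose in 9 and fell in 13 of 28. These subsets overlap, as some genes lie in several of the maps.

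**Figure D1:**
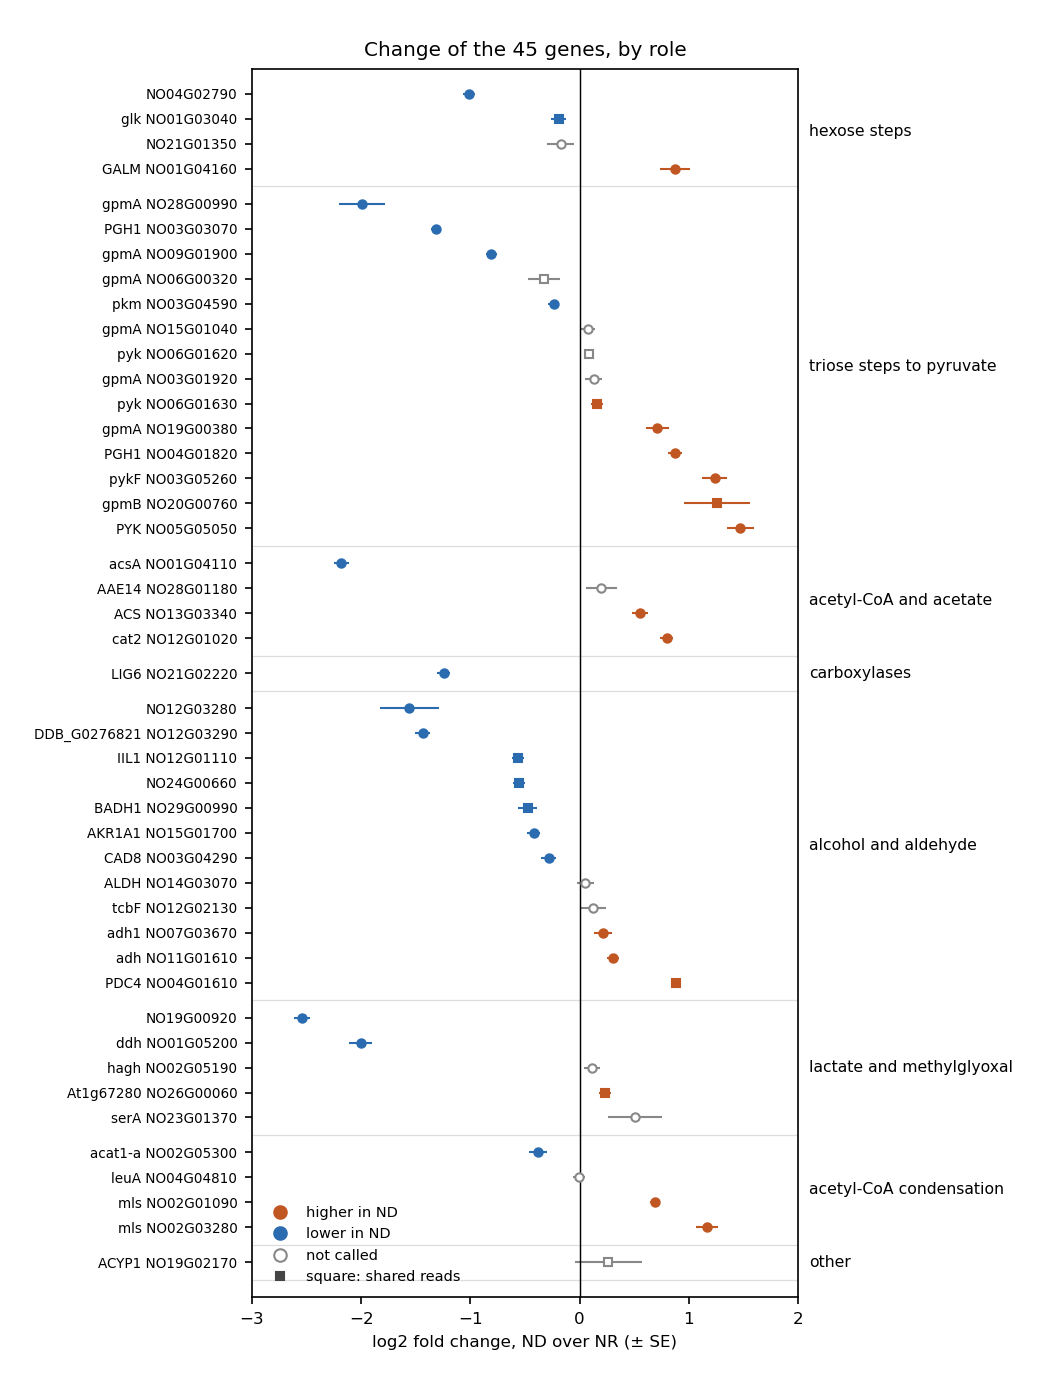
Log2 fold change of ND over NR (x axis, bars are SE) for the 45 genes, grouped by role, with filled symbols for genes called changed and squares for shared reads. The changes run from -2.54 for NO19G00920 to +1.47 for PYK, and most role groups hold genes on both sides of 0; the values for glk, CAD8, pkm, leuA and NO21G01350 change sign with library totals alone.

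At the entry to glycolysis, where sugars are shaped and phosphorylated, 2 of 4 genes fell and 1 rose. The more abundant of 2 glucose-6-phosphate 1-epimerases, NO04G02790, which interconverts the ring forms of glucose 6-phosphate, stood at 214, 209 and 205 CPM in NR cultures 1 to 3 and at 105, 101 and 104 CPM in ND cultures 1 to 3. Every ND library was well under every NR library, a change of -1.01 ± 0.06 (adjusted p = 2.3e-12). GALM (NO01G04160), an aldose 1-epimerase that acts on galactose and glucose, was measured at 14.8, 16.5 and 18.0 CPM in NR and 31.2, 26.5 and 32.6 CPM in ND. It is a low-level transcript that rose 1.84 times (adjusted p = 9.64e-06). The other epimerase, NO21G01350, was at 37.7 ± 4.34 CPM in NR and 33.4 ± 5.00 CPM in ND with overlapping libraries (adjusted p = 0.212, 95% interval -0.43 to 0.08). It was called lower without ND culture 2 (-0.31, adjusted p = 0.0415) and was at +0.14 with library totals alone. The glucokinase glk (NO01G03040, shared reads), which phosphorylates glucose, had 121.2, 105 and 103 CPM in NR and 95.1, 97.3 and 96.7 CPM in ND, with NR culture 1 the highest. The fall of -0.19 ± 0.07 (adjusted p = 0.0219) rested on NR culture 1, without which it was -0.11 (adjusted p = 0.179), and it was +0.13 with library totals alone.

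The 14 genes of the last steps to pyruvate split, with 6 higher, 4 lower and 4 that did not pass. Enolase, which makes phosphoenolpyruvate, has 2 genes in the set, both named PGH1, and they moved in opposite directions. The main one, NO03G03070, had the highest TPM (length-scaled abundance, not corrected for composition) of all 45 genes in NR, at 816 ± 21.0. Its levels were 1148, 1145 and 1088 CPM in NR and 475, 434 and 449.7 CPM in ND, with a wide gap between the conditions. It fell 2.49 times (-1.32 ± 0.05, adjusted p = 1.2e-15). For NO04G01820 the libraries read 101, 110.0 and 96.8 CPM in NR and 197, 185 and 185 CPM in ND, again without overlap. This gene rose 1.84 times (+0.88 ± 0.06, adjusted p = 1.51e-10). As a share of the TPM of both, NO03G03070 went from 92.0% ± 0.353 in NR to 71.5% ± 0.351 in ND. The sum of both in composition-scaled TPM went from 991 ± 38.7 to 530.2 ± 22.0, and from 888 ± 25.2 to 592 ± 22.9 in TPM as deposited.

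Phosphoglycerate mutase, which moves the phosphate of 3-phosphoglycerate ahead of the enolase step, is the largest family, with 7 genes. Of these 2 fell, 2 rose and 3 did not pass. The most abundant, gpmA (NO09G01900), gave 383, 367 and 395 CPM in NR and 223, 222 and 210.2 CPM in ND. The gap exceeded the spread of either condition, and the level fell 1.75 times (-0.81 ± 0.05, adjusted p = 1.59e-11). A second gpmA, NO28G00990, fell further, from 26.8, 22.6 and 17.2 CPM in NR to 5.96, 4.15 and 6.57 CPM in ND (-1.99 ± 0.21, adjusted p = 4.88e-08). It was a scarce transcript, and its 23 to 109 counts per library give it a wider error than the main gene. In contrast NO19G00380 went up from 39.0 ± 6.12 to 64.4 ± 4.81 CPM (+0.71 ± 0.10, adjusted p = 3.92e-06). The scarcest member of the whole set in NR, gpmB (NO20G00760, shared reads), had 2.71, 1.93 and 3.88 CPM in NR and 7.19, 7.22 and 6.10 CPM in ND. It rose by the test (+1.26 ± 0.30, adjusted p = 0.000975), with as few as 7 counts in a library.

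The remaining mutases were NO15G01040 (+0.08 ± 0.06, adjusted p = 0.273), NO03G01920 (+0.13 ± 0.08, adjusted p = 0.148) and NO06G00320 (shared reads, -0.32 ± 0.15, adjusted p = 0.0555). The first 2 were called higher under upper-quartile factors, library totals alone and the 2 FPKM fits, and NO06G00320 was called lower with RLE factors (adjusted p = 0.047) or without ND culture 1 (adjusted p = 0.0316), while both FPKM fits put it at +0.01. The share of NO09G01900 in the family's TPM went from 75.5% ± 1.10 to 62.2% ± 0.899, and that of NO19G00380 from 4.16% ± 0.529 to 9.69% ± 0.417. The summed TPM of the family went from 599 ± 18.7 to 537 ± 22.7 as deposited and from 669 ± 16.5 to 481 ± 22.6 when scaled for composition.

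Pyruvate kinase, which closes glycolysis by making pyruvate and ATP, has 5 genes in the set. Of these 3 rose, 1 fell and 1 did not pass, and the largest rises were in the members with the lowest TPM. PYK (NO05G05050) was at 23.4, 19.5 and 17.5 CPM in NR and at 63.9, 52.9 and 52.6 CPM in ND. All ND libraries were well above any NR library, and the rise of 2.78 times was the largest in the set (+1.47 ± 0.12, adjusted p = 1.21e-09). Values for pykF (NO03G05260) were 20.4, 22.8 and 23.0 CPM in NR and 54.2, 46.2 and 55.4 CPM in ND. That gene rose 2.36 times (+1.24 ± 0.11, adjusted p = 5.12e-09).

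The bulk of pyruvate kinase RNA came from 2 adjacent models named pyk, NO06G01620 and NO06G01630. Both carry shared reads, but the models they share them with are not identified. NO06G01630 had the highest TPM of the 45 genes in ND (743 ± 19.0) and the next highest in NR (514 ± 47.3). Its levels were 538, 529 and 449 CPM in NR and 583, 549.9 and 561 CPM in ND, higher in each ND library but close to NR cultures 1 and 2. The rise of +0.16 ± 0.06 (adjusted p = 0.02) was no longer called without NR culture 3 (+0.08, adjusted p = 0.111) or without ND culture 1 (+0.13, adjusted p = 0.0746). NO06G01620 stood at 1001, 1033 and 1095 CPM in NR and 1137, 1095 and 1094 CPM in ND, which overlap (+0.09 ± 0.05, adjusted p = 0.0889), and it was called higher without NR culture 3 (+0.12, adjusted p = 0.0084), with upper-quartile factors, without composition factors and in the 2 FPKM fits. Added together, a step chosen after seeing the data, the 2 models changed by +0.11 ± 0.04 (adjusted p = 0.02). The fifth gene, pkm (NO03G04590), went from 289 ± 7.97 to 245 ± 10.9 CPM (-0.24 ± 0.05, adjusted p = 0.000458), and its value with library totals alone was +0.08. PYK and pykF together made up a small part of the family, at 1.04% ± 0.133 and 1.92% ± 0.184 of its TPM in NR and 2.66% ± 0.221 and 4.13% ± 0.319 in ND. Over all 5 genes the summed TPM went from 1116 ± 50.9 to 1265 ± 40.1 when scaled for composition and from 1000 ± 35.1 to 1412 ± 41.4 as deposited.

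**Figure D2:**
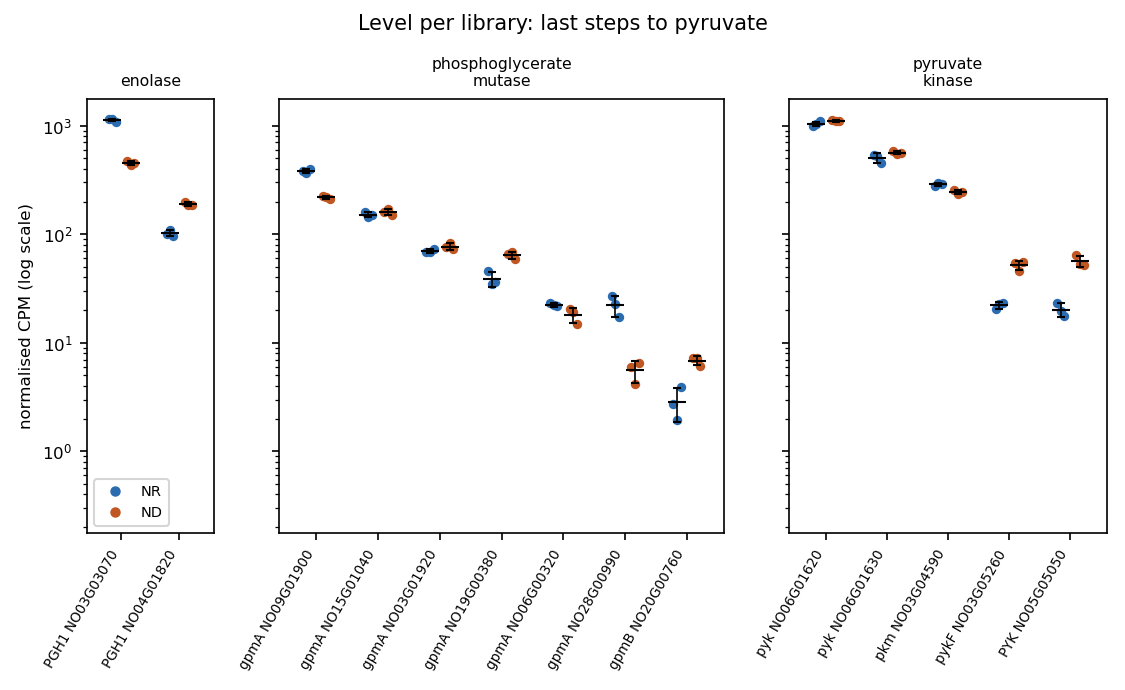
Normalised CPM (log axis) of the enolase, phosphoglycerate mutase and pyruvate kinase genes in each NR and ND library, with mean and SD as bars. The main enolase and the main mutase (NO09G01900) drop in ND, while the scarce kinases PYK and pykF rise and the 2 abundant pyk models differ by +0.16 and +0.09.

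Acetate enters metabolism as acetyl-CoA through acetyl-CoA synthetase. The gene acsA (NO01G04110), annotated as that enzyme, was at 246, 262 and 234 CPM in NR and 50.1, 53.8 and 58.8 CPM in ND. No ND library came near an NR one, and the level fell 4.54 times (-2.18 ± 0.07, adjusted p = 1.77e-16). A second gene, ACS (NO13G03340), whose closest annotated protein is a chloroplast or glyoxysome enzyme of Arabidopsis, rose from 75.8 ± 3.90 to 111 ± 5.99 CPM (+0.55 ± 0.07, adjusted p = 1.04e-06). Their order of abundance changed. The gene acsA held 79.1% ± 0.274 of the family's TPM in NR and 37.0% ± 3.01 in ND, and ACS 16.5% ± 0.434 and 52.2% ± 2.56. The summed composition-scaled TPM of the 3 synthetase genes went from 280.1 ± 18.6 to 135 ± 5.58.

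The family's smallest member, AAE14 (NO28G01180), carries a description of a succinylbenzoate-CoA ligase and not of an acetate enzyme, and its level went from 19.9 ± 2.28 to 22.9 ± 3.19 CPM without passing (+0.20 ± 0.14, adjusted p = 0.222), though it was called higher with library totals alone (+0.52). The gene cat2 (NO12G01020) falls under acetyl-CoA hydrolase in KEGG and is described as a CoA transferase, enzymes that move coenzyme A between acids. It was at 104, 104 and 103 CPM in NR and 181, 182 and 178 CPM in ND. The libraries of a condition were almost identical, and the gene rose 1.74 times (+0.80 ± 0.06, adjusted p = 1.66e-10).

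**Figure D3:**
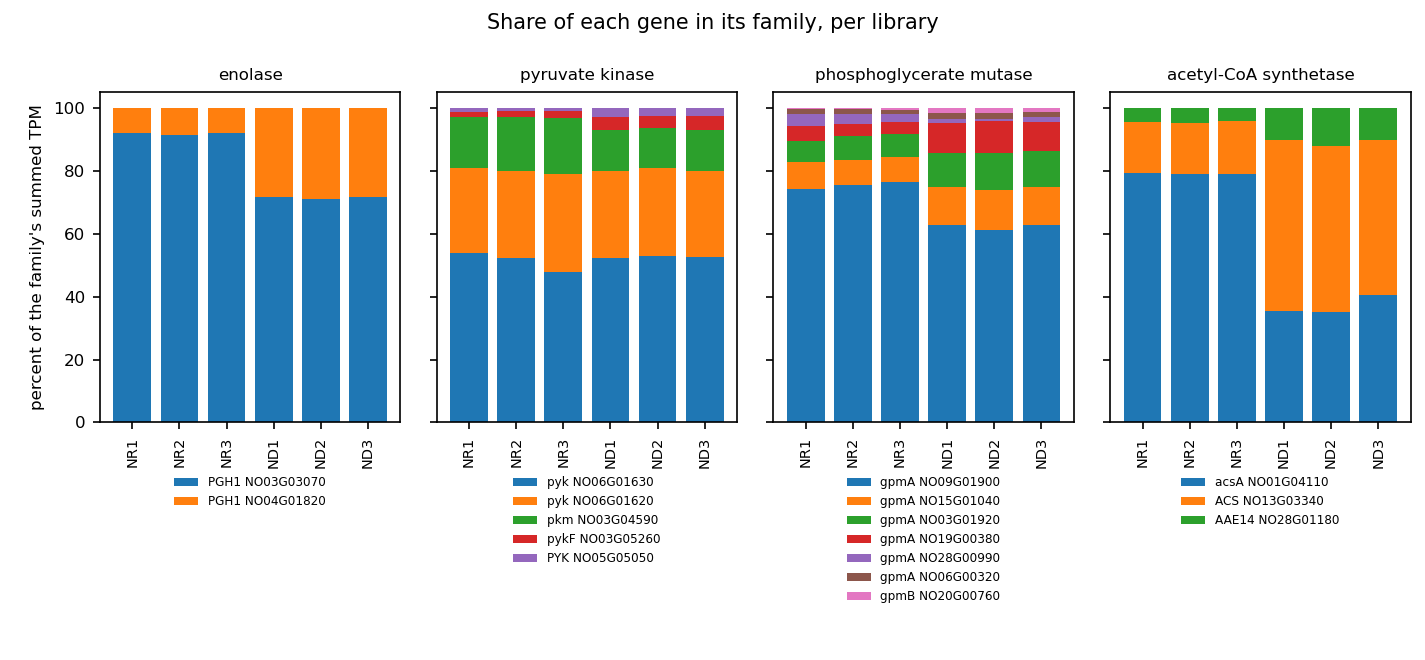
Percent of each family's summed TPM held by each of its genes (stacked bars) in the 6 libraries, for enolase, pyruvate kinase, phosphoglycerate mutase and acetyl-CoA synthetase. ACS overtakes acsA in ND and the smaller enolase gains, while in pyruvate kinase the share of NO06G01630 is 47.7% to 53.9% over all libraries.

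Acetyl-CoA carboxylase makes malonyl-CoA, the first committed step of fatty acid synthesis. The member that carries this annotation, LIG6 (NO21G02220), has a second KEGG assignment, DCLRE1A, and matches a DNA ligase in Swiss-Prot. Its counts are therefore not those of a carboxylase annotation alone. It read 595, 585 and 518 CPM in NR and 227, 254 and 235 CPM in ND. The conditions were far apart, and it fell 2.37 times (-1.24 ± 0.06, adjusted p = 1.16e-13).

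Genes that condense acetyl-CoA with another acid went several ways. Malate synthase, of the glyoxylate cycle that lets cells build sugars from acetate or fatty acids, has 2 genes named mls and both rose. NO02G01090 was at 820.5, 896 and 843 CPM in NR and 1380, 1402 and 1344 CPM in ND. It was already abundant in NR and rose 1.61 times (+0.69 ± 0.05, adjusted p = 2.81e-11). The lesser gene, NO02G03280, had 34.2, 26.4 and 32.5 CPM in NR and 73.1, 69.1 and 67.9 CPM in ND. Its rise was 2.25 times (+1.17 ± 0.10, adjusted p = 1.31e-09), and the summed composition-scaled TPM of both went from 319 ± 10.7 to 532 ± 12.9.

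The 2-isopropylmalate synthase leuA (NO04G04810), which starts leucine synthesis from acetyl-CoA and a keto acid made from pyruvate, had 295, 254 and 269.6 CPM in NR and 269, 270.0 and 277 CPM in ND. The NR libraries spread on both sides of the ND ones, the change was -0.01 ± 0.06 (adjusted p = 0.928) and its 95% interval ran from -0.12 to 0.11. With library totals alone leuA was called higher, at +0.31. The acetyl-CoA acetyltransferase acat1-a (NO02G05300), which joins 2 acetyl-CoA and belongs to several routes including sterol precursors, went from 67.1 ± 4.91 to 51.6 ± 1.40 CPM (-0.38 ± 0.08, adjusted p = 0.000422) and was not called with library totals alone (-0.06).

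Among 12 genes of alcohol and aldehyde metabolism 3 rose, 7 fell and 2 did not pass. PDC4 (NO04G01610, shared reads), annotated as the pyruvate decarboxylase that splits pyruvate into acetaldehyde and CO2, had the largest rise of the 12. It was at 329, 334 and 327 CPM in NR and 609, 623 and 600.4 CPM in ND. Replicates lay close together and the level rose 1.85 times (+0.89 ± 0.05, adjusted p = 5.56e-13). Alcohol dehydrogenases can reduce acetaldehyde to ethanol. The gene adh (NO11G01610), the most abundant of the 12 by TPM, was at 263, 271 and 239 CPM in NR and 332, 304 and 320.1 CPM in ND. All ND values were above all NR values, a rise of 1.24 times (+0.31 ± 0.06, adjusted p = 6.38e-05).

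The other 3 alcohol dehydrogenases did not share a direction. The gene adh1 (NO07G03670) went from 67.8 ± 4.04 to 78.9 ± 6.29 CPM (+0.21 ± 0.08, adjusted p = 0.0254). That call was lost without NR culture 2 (+0.17, adjusted p = 0.101), ND culture 1 (+0.16, adjusted p = 0.12) or ND culture 3 (+0.21, adjusted p = 0.0576), and in DESeq2 (adjusted p = 0.111). The class III enzyme NO24G00660 (shared reads), of a type that also oxidises formaldehyde bound to glutathione, fell from 286 ± 17.2 to 195 ± 6.39 CPM (-0.55 ± 0.06, adjusted p = 2.46e-08). The tcbF gene (NO12G02130), described as a maleylacetate reductase, was at 33.4 ± 1.74 CPM in NR and 36.6 ± 4.99 CPM in ND (adjusted p = 0.346), and was called higher with library totals alone (+0.44).

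Aldehyde dehydrogenases oxidise aldehydes to acids, and 4 of the 5 genes fell. DDB_G0276821 (NO12G03290), of the ALDH7A1 type known in other organisms for lysine breakdown and osmotic stress, was at 175, 157 and 168 CPM in NR and 66.2, 60.8 and 58.1 CPM in ND. It fell 2.71 times (-1.44 ± 0.07, adjusted p = 2.31e-13), with no ND library above 66.2 CPM. Its neighbour by gene ID, NO12G03280, a short model of 405 bases with the same annotation, had 7.39, 11.0 and 12.5 CPM in NR and 2.88, 4.15 and 3.29 CPM in ND. That too was a fall (-1.56 ± 0.27, adjusted p = 3.35e-05). The sum of both models, a step chosen after seeing the data, changed by -1.45 ± 0.07 and came mostly from NO12G03290.

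IIL1 (NO12G01110, shared reads), whose description names an isopropylmalate dehydratase subunit of leucine synthesis beside its aldehyde dehydrogenase assignment, fell from 266 ± 5.17 to 180.2 ± 6.30 CPM (-0.56 ± 0.05, adjusted p = 7.63e-09). BADH1 (NO29G00990, shared reads), annotated for betaine aldehyde, fell from 87.6 ± 10.2 to 63.1 ± 2.41 CPM (-0.47 ± 0.09, adjusted p = 5.19e-05), and was not called with library totals alone (-0.16). The remaining gene, ALDH (NO14G03070), read 120.2, 108 and 98.2 CPM in NR and 105, 120.4 and 113 CPM in ND, with the conditions interleaved (adjusted p = 0.571, 95% interval -0.11 to 0.21). It was called higher with library totals alone (+0.37) and was at -0.02 without NR culture 3. The summed composition-scaled TPM of the family went from 622 ± 2.05 to 352 ± 11.1.

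Both aldehyde reductases fell by modest amounts. AKR1A1 (NO15G01700), an aldo-keto reductase, went from 293 ± 19.1 to 218 ± 9.10 CPM (-0.42 ± 0.06, adjusted p = 1.46e-06) and CAD8 (NO03G04290), described as a cinnamyl alcohol or mannitol dehydrogenase, from 199 ± 4.34 to 164 ± 17.3 CPM (-0.28 ± 0.07, adjusted p = 0.000831). With library totals alone neither was called, and CAD8 was at +0.03.

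**Figure D4:**
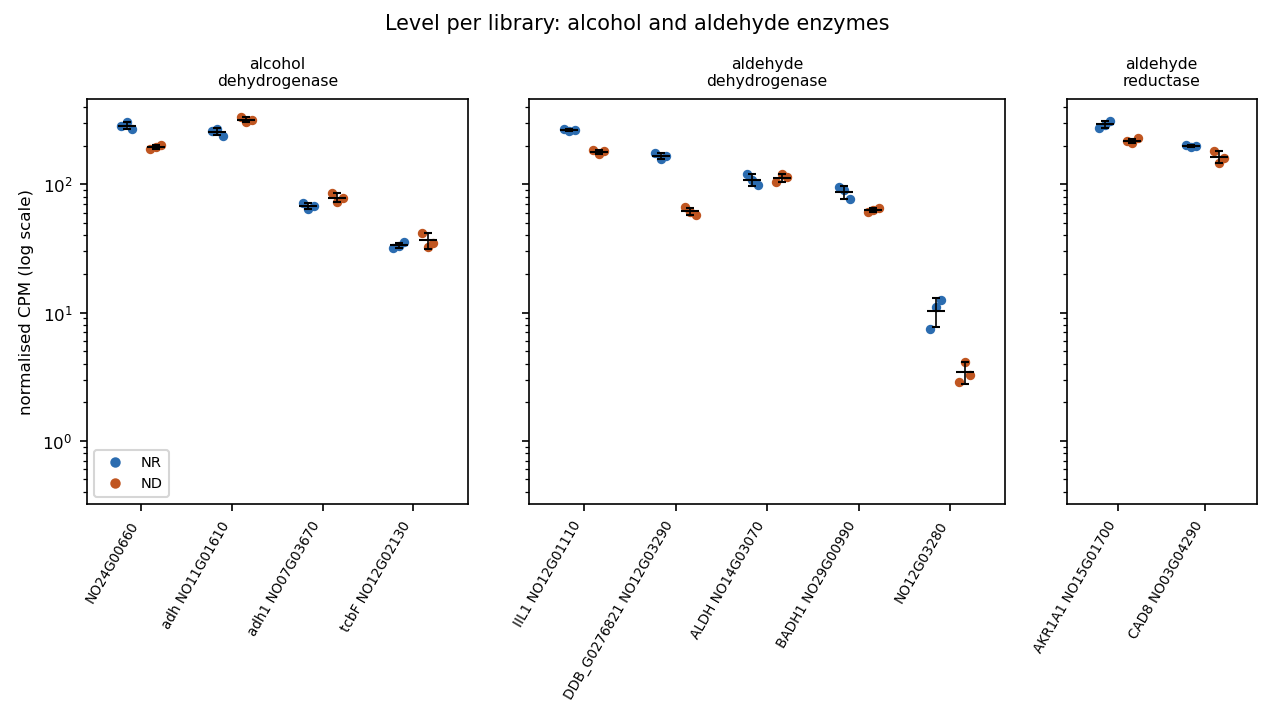
Normalised CPM (log axis) of the alcohol dehydrogenase, aldehyde dehydrogenase and aldehyde reductase genes in each library, with mean and SD as bars. DDB_G0276821 and its neighbour NO12G03280 show the widest gap between NR and ND, and adh lies above its NR values in all 3 ND libraries.

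Both genes assigned to D-lactate dehydrogenase, which oxidises D-lactate to pyruvate or runs in reverse, fell, and NO19G00920 had the largest fall of the 45 genes. NO19G00920 was at 204, 230.0 and 216 CPM in NR and 39.7, 35.0 and 36.9 CPM in ND. It fell 5.83 times (-2.54 ± 0.07, adjusted p = 3.22e-17), with all ND libraries under 40 CPM. KEGG files it as the flavin-dependent enzyme, whereas its gene ontology terms name arabinonolactone oxidase, of ascorbate synthesis, and it has no Swiss-Prot match. The other gene, ddh (NO01G05200), described as a 2-hydroxyacid dehydrogenase, read 63.0, 61.9 and 66.3 CPM in NR and 16.6, 16.2 and 14.9 CPM in ND. That is a fall of 4.01 times (-2.00 ± 0.11, adjusted p = 6.69e-13).

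Methylglyoxal, a toxic by-product of the triose phosphates, is turned into D-lactate by lactoylglutathione lyase and then hydroxyacylglutathione hydrolase. The lyase At1g67280 (NO26G00060, shared reads) rose from 212 ± 6.52 to 249 ± 12.2 CPM (+0.23 ± 0.06, adjusted p = 0.000879). The hydrolase hagh (NO02G05190) had 88.4, 87.5 and 87.4 CPM in NR and 92.5, 92.6 and 99.4 CPM in ND. The ND values were all higher, yet the gene did not pass (+0.11 ± 0.07, adjusted p = 0.148), and it was called higher under upper-quartile factors (+0.22), library totals alone (+0.43) and the 2 FPKM fits. The gene serA (NO23G01370), assigned to glyoxylate and hydroxypyruvate reductase but described as a D-3-phosphoglycerate dehydrogenase, had 19 to 76 counts per library. Its change was +0.51 ± 0.25 (adjusted p = 0.0712). It was called with the replicate number as a block (adjusted p = 0.0467), without NR culture 2 (adjusted p = 0.0279) and with whole counts only (adjusted p = 0.0235), as well as with upper-quartile factors, library totals alone and log2(FPKM + 1).

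Acylphosphatase, which cleaves acyl phosphates, closes the set with ACYP1 (NO19G02170, shared reads). Its levels were 3.20, 5.23 and 3.05 CPM in NR and 4.11, 4.87 and 4.70 CPM in ND, from 11 to 30 counts per library. They overlap, and the 95% interval of -0.38 to 0.91 spans both directions (adjusted p = 0.456).

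**Figure D5:**
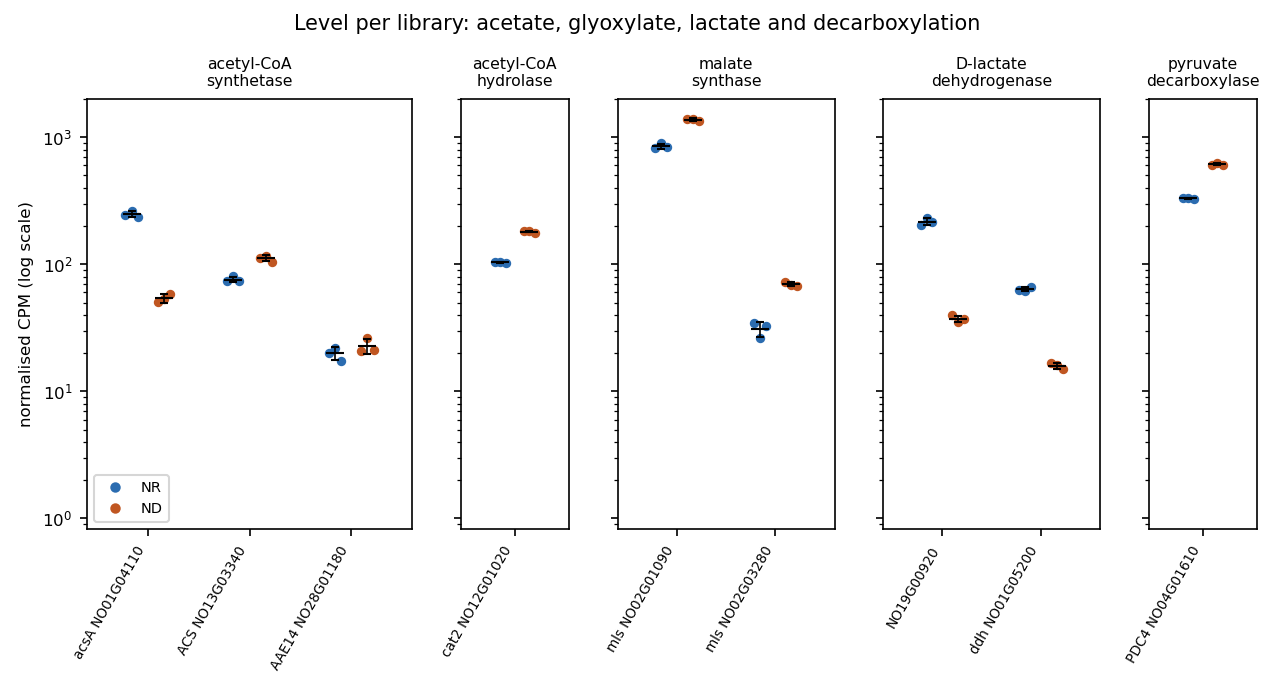
Normalised CPM (log axis) of the acetyl-CoA synthetase, acetyl-CoA hydrolase, malate synthase, D-lactate dehydrogenase and pyruvate decarboxylase genes in each library, with mean and SD as bars. Both lactate dehydrogenase genes and acsA drop by at least 4.01 times in ND, whereas both malate synthases, cat2 and PDC4 rise.

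In the order of TPM within a condition, which allows genes of different length to be compared, the leading genes of NR were the enolase NO03G03070 (816 ± 21.0), the kinase NO06G01630 (514 ± 47.3), the mutase NO09G01900 (452 ± 16.2) and adh (409 ± 26.3). The enolase lay above the kinase in all NR libraries, whereas the kinase overlapped the mutase, whose 3 values lay above those of adh by little. In ND the kinase NO06G01630 (743 ± 19.0) and adh (659 ± 26.8) came first, followed by the malate synthase NO02G01090 (518 ± 10.3) and then the enolase (423 ± 17.6), with no overlap of libraries between these neighbours. Together the 45 genes held 0.606% to 0.626% of all TPM in NR and 0.664% to 0.678% in ND. These shares are not scaled for composition.

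The authors' deposited table of ND against NR holds 2057 genes and lists 13 of the 45 (28.9%), 4 higher and 9 lower. The directions of all 2057 genes were not counted, so no background stands beside that split. Its listed log2 changes start at 1.0001 in size, and the largest FDR it lists is 0.0498. The 2057 genes are 19.6% of all 10481, which include genes that failed the filter on low counts. All 45 members passed that filter, so their share and the 19.6% have unlike bases. Of the 9329 genes tested here, 21.9% were called with a change of at least 2 times. Among the 13 members listed by the authors, the extremes were NO19G00920 at -2.56 and PYK at +1.47.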

How the data were processed

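Each of the 6 libraries has a table of 10481 genes. Per the file headers, the columns deposited by the authors are an estimated count per gene that is not normalised, TPM and FPKM, with TPM and FPKM corrected for length and depth. For each gene listed, the authors' deposited comparison holds the log2 change, its p-value and the FDR. Tools in the submitters' processing notes are STAR, StringTie, featureCounts, edgeR, Trim Galore and Picard, without roles or versions. The genome build is not given in the sources used here, so no coordinates or sequences are printed, and 0 gene IDs matched the 160 genes of the reference table.

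Expected counts were rounded and tested over all genes with the quasi-likelihood test of edgeR 4.0.16 (R 4.3.3), after filterByExpr and with TMM factors, and p-values were adjusted by Benjamini-Hochberg and called under 0.05. The SE is the absolute log2 change over the square root of F, and intervals are at 95%. The biological coefficient of variation was 0.0475. No library was a duplicate, as the chi-square per degree of freedom between libraries of one condition was 1.73 to 2.98. P-values set the difference between the conditions against the spread between cultures of one condition. Composition-scaled TPM is TPM over the TMM factor. The same steps were run on simulated data with few changed genes, as many rising as falling. No difference in composition between the conditions was built in, so that run cannot test the choice of scaling.

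Members were chosen, and placed in 8 role groups by KEGG assignment, with earlier results of these data known. Values per library were given for genes that a rule named (highest TPM and the 2 smallest p-values of a role group, the 6 largest rises and falls, the smallest called changes and the largest p-values), 26 in all. Values of NO06G01620 per library, and the remaining members, were chosen after their values were seen. Alternatives were a replicate block, other scalings, DESeq2 1.42.0, limma 3.58.1 on log2(FPKM + 1) and log2(FPKM + 0.1), other filters, a threshold of 0.01, whole counts only and each library left out.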

Additional observations from a re-analysis of the deposited data

How the results depend on the processing

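Of 33 called members, 25 kept their call and direction under all alternatives run, 13 higher and 12 lower. The 8 exceptions were glk, CAD8, pkm, adh1, acat1-a, AKR1A1, BADH1 and the kinase NO06G01630, and every one of the 12 members not called was called, or changed sign, under at least 1 alternative. Whole counts only tested 25 of the 33 and the filter at 10 CPM tested 31, so some members met fewer alternatives. The count of kept calls was not made over all genes, so no background share stands beside it. The largest shifts in the members' directions and median came with library totals alone, which changes only the scaling, and with the 2 FPKM fits. Those fits also change the input, the test and the filter. With library totals alone, log2(FPKM + 1) and log2(FPKM + 0.1) in that order, members higher in ND numbered 24, 25 and 24 in place of 15, and their median change was 0.40, 0.39 and 0.40 in place of 0.08. For all genes the numbers higher were 5075, 5090 and 5059, the numbers lower 2149, 2031 and 2019, and the medians 0.34, 0.34 and 0.36. The medians of the genes set aside were 0.28, 0.30 and 0.30. Upper-quartile factors gave medians of 0.19 for members, 0.13 for all genes and 0.0673 for the genes set aside. The median of all genes was 0.0086 with RLE factors, 0.0096 in DESeq2 and 0.0169 at 10 CPM or more, and that of the genes set aside was -0.16 with whole counts only. Leaving out each library moved the members' median between 0.0282 and 0.0852, the number called between 32 and 34, the median of all genes between 0.0139 and 0.0283, and that of the genes set aside between -0.0965 and -0.029. Signs reversed, in the same order of the 3 alternatives, for glk (0.13, 0.13 and 0.13), CAD8 (0.0325, 0.0400 and 0.0403), pkm (0.0801, 0.0584 and 0.0589), leuA (0.31, 0.33 and 0.33, and 0.10 with upper-quartile factors) and NO21G01350 (0.14, 0.15 and 0.15). NO06G00320 reversed in both FPKM fits (0.0068 and 0.0063). Without 1 library, leuA lay between -0.0528 and 0.0528 and ALDH between -0.0185 and 0.1285. The cause of these shifts was not tested.

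With the replicate number as a block 34 members and 6590 of all genes were called, against 33 and 6645. The labels number the cultures without saying whether the numbers pair them. Deviations of same-numbered libraries correlated at only 0.0283 to 0.0762. Each NR library still correlated best with the ND library of its own number. Deviations were taken from the mean of each condition, so these matches are not independent, and whether they reflect pairing was not tested. The block added serA and ended no member's call. Estimates at fewer than 50 counts per library (gpmB, ACYP1, NO12G03280) are limited by depth.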
